A study of Mus musculus with 7 samples.

Results

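This account covers 10 genes of end joining, the repair route that seals the DNA breaks made during antibody class switching, in germinal centre B cells of wild-type and RRas2-deficient mice. They are Xrcc5, Xrcc6, Prkdc, Lig4, Xrcc4, Nhej1, Atm, Rnf8, Trp53bp1 and Rif1. They were taken by name from the platform annotation, each had 1 probe with a single gene symbol, and all 10 of the 21515 genes so named were among the 16136 bright enough to be tested. The study compared the transcripts of such cells with and without R-Ras2, a small GTPase related to RAS. Every mouse, of either genotype, had been given sheep red blood cells into the peritoneum 7 days earlier. Spleen B cells with B220, CD95 and GL7 on their surface were sorted, and total RNA from each of 4 wild-type (WT) and 3 RRas2-deficient samples was read on 1 whole-transcript array. The labels give no age, strain or allele, do not say whether a sample came from 1 animal or several, and in one field write the deficient gene as Rras. The values are log2 intensities, so a difference of 1 is a factor of 2 on the intensity scale, and the intensities of different probes are not set against each other.

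Class switching replaces the first constant region of the heavy chain with a later one. Breaks of both strands are made in repetitive switch regions, and 2 distant breaks are then joined. ATM, a kinase activated at breaks, and RNF8, a ubiquitin ligase, mark the chromatin around a break. TRP53BP1 gathers on that mark and recruits RIF1, which shields the ends from being trimmed. Ku, made of the products of Xrcc6 (Ku70) and Xrcc5 (Ku80), rings the ends and brings in the kinase DNA-PKcs, the product of Prkdc. DNA ligase IV (Lig4), with its partner XRCC4 and the related XLF (Nhej1), seals them. Loss of one of these factors can lower switching in B cells, to a degree that differs between the factors.

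A split of the arrays into 2 sets, each with both genotypes, bears on most of the values that follow. The interquartile range over all 25349 probes was 2.37 to 2.49 on 3 narrower arrays (WT replicates 1 and 2 and RRas2-deficient replicate 2) and 2.69 to 2.91 on 4 wider ones (WT replicates 3 and 4 and RRas2-deficient replicates 1 and 3). Over the 12 measured markers of germinal centre B cells the mean intensity was 9.10 to 9.24 in the narrower set and 9.93 to 10.3 in the wider set. Over 11 proliferation genes it was 8.0 to 8.30 and 9.04 to 9.57, and over 6 markers of naive and marginal zone B cells it ran the other way, at 8.06 to 8.32 and 7.24 to 7.60. The B cell gene Cd79a read 11.3 to 12.1 over the 7 arrays, Bcl6 9.07 to 10.02, Fas, which encodes CD95, 7.11 to 8.77, and S1pr2 7.42 to 9.36. Cd3e of T cells read 3.55 to 4.64. These are different probes, so their levels do not measure the purity of the sort. The myeloid genes Lyz2 and Csf1r reached 5.57 and 5.56, both on RRas2-deficient replicate 3. Rras2 read 7.13 to 8.66 on the WT arrays and 6.68 to 7.12 on the deficient ones, a log2 difference of -0.99 ± 0.39 (SE; limma adjusted p = 1), and of -1.13 ± 0.20 (SE; limma adjusted p = 0.296) when the array set was a block. None of the 10 genes lies on chromosome 7, which carries Rras2.

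**Figure D1:**
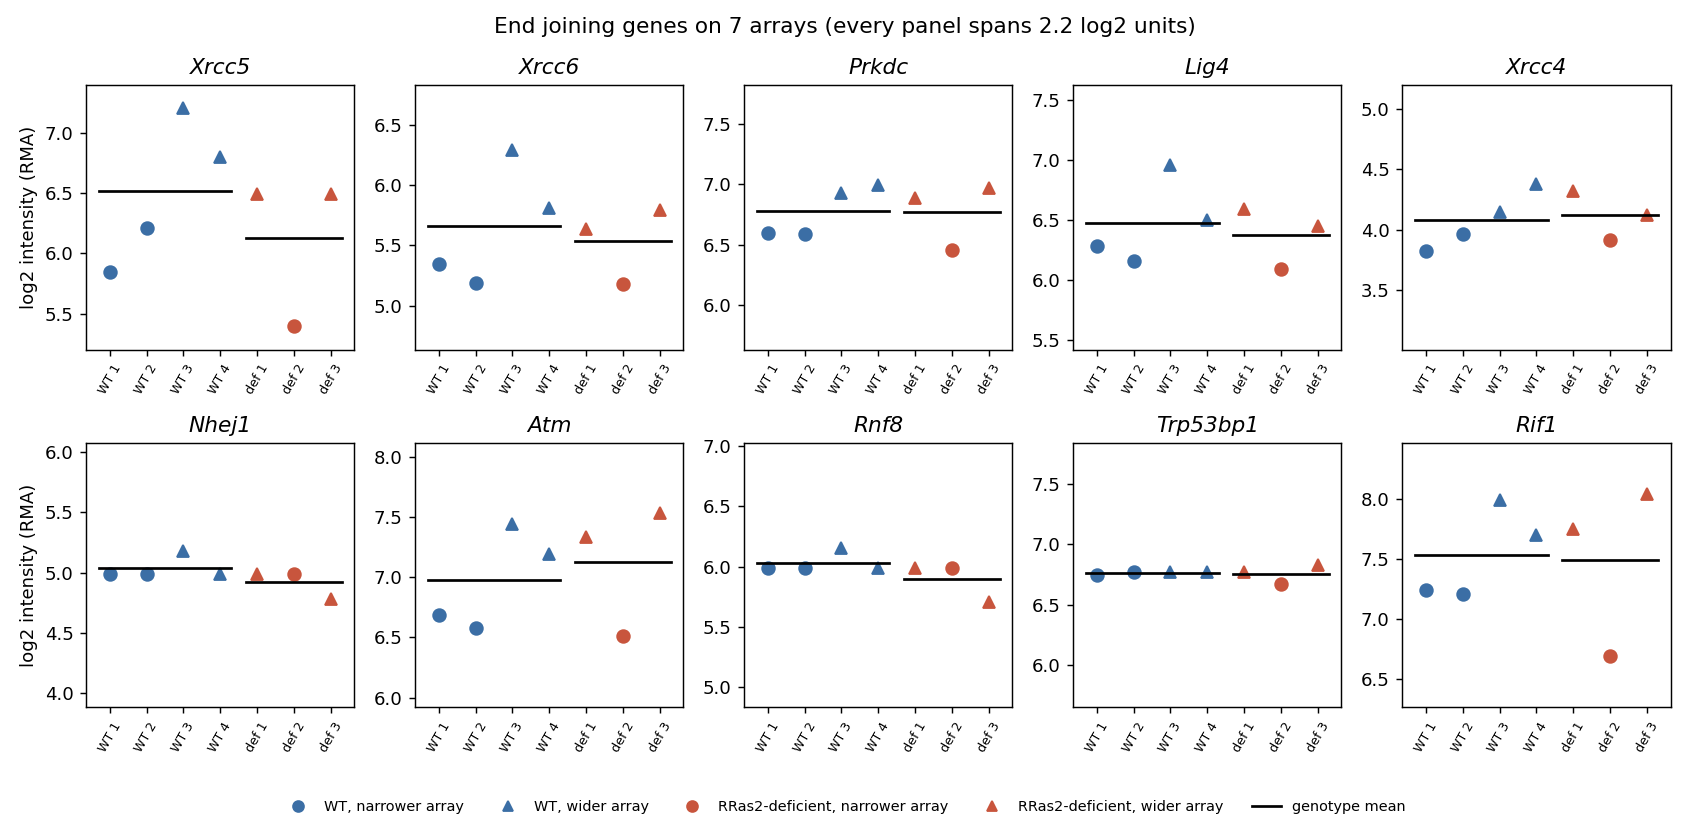
Log2 intensity of each end joining gene (vertical axis, 2.2 log2 units in every panel) on the 4 WT (blue) and 3 RRas2-deficient (red, "def") arrays, with circles for the narrower and triangles for the wider arrays and a black line at each genotype mean. The triangles lie above the circles in Xrcc5, Xrcc6, Prkdc, Lig4, Xrcc4, Atm and Rif1, and do not all do so in Nhej1, Rnf8 and Trp53bp1.

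No end joining gene passed the test for a genotype difference. In limma's test with Benjamini-Hochberg adjustment over the 16136 genes, 0 of the 10 had an adjusted p under 0.05, as against 0.0124% of all genes (2 genes), and every one of the 10 had an adjusted p of 1. At an unadjusted p under 0.05 there were also 0 of 10, against 0.818% of all genes. Mean intensity was lower in the deficient cells for 8 genes and higher for Xrcc4 and Atm, where 48.3% of all genes were lower. The median log2 difference (deficient minus WT) of the 10 was -0.07, beside 0.00 for all genes tested. In no gene were the genotypes fully apart, which 1.08% of all genes showed. The widest limma 95% interval, that of Xrcc5, ran from -1.36 to 0.59, and the narrowest, that of Trp53bp1, from -0.19 to 0.17.

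The array set, held as a block in the same limma model, narrowed these intervals for the genes that differ between the sets. With it 9 of the 10 had lower means in the deficient cells, all but Atm, against 50.9% of all genes, and the median difference was -0.13, beside 0.00 for all genes. In the same blocked model all 11 proliferation genes, 11 of 12 germinal centre markers and 6 of 6 plasma cell markers were also lower in the deficient cells, with medians of -0.25, -0.14 and -0.29, while 4 of 6 naive and marginal zone markers were higher, with a median of 0.18. None of these markers passed the test, and their part in the lean of the end joining genes was not tested. One gene, Xrcc5, then had an unadjusted p under 0.05, which 10.1% of all genes also had, and 0 of 10 passed after adjustment (2 of all genes, 0.0124%). With each array's interquartile range entered as a number, and no sets, the median was -0.03, and Xrcc5 again was the 1 gene with an unadjusted p under 0.05, against 4.70% of all genes.

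**Figure D2:**
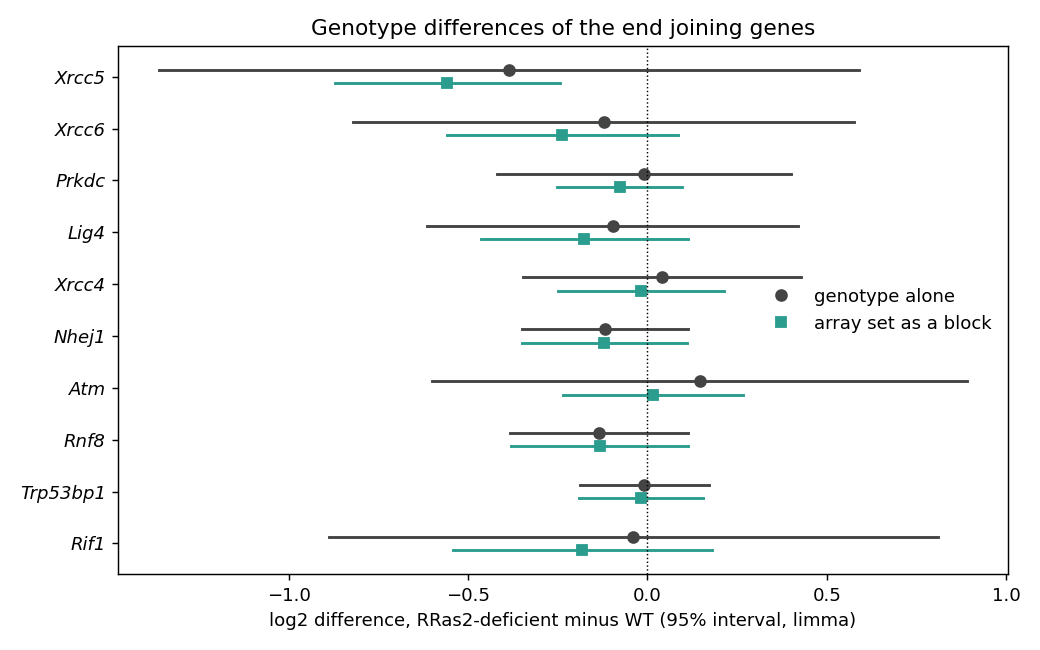
Log2 difference of each end joining gene, RRas2-deficient minus WT (horizontal axis), with limma's 95% interval, from the model with genotype alone (grey circles) and with the array set as a block (green squares), in 4 WT and 3 deficient arrays. With the block the interval of Xrcc5 runs from -0.87 to -0.24, and those of the other 9 genes include 0.

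The Ku genes had the most negative blocked differences of the 10, and neither passed the test after adjustment. Xrcc5 (gene ID 22596) had intensities of 5.85, 6.21, 7.21 and 6.80 on the WT arrays, here and later in the order of their replicate numbers, and of 6.50, 5.39 and 6.50 on the deficient arrays. The deficient arrays lay below the WT arrays of their own set in both sets, while the genotypes overlapped when the sets were pooled. The means were 6.52 ± 0.61 (SD, n = 4) and 6.13 ± 0.64 (SD, n = 3), a log2 difference of -0.39 ± 0.41 (SE), or 1.31-fold. Within the narrower arrays the difference was -0.63, from 1 deficient array, and within the wider ones -0.51. RRas2-deficient replicates 1 and 3, both in the wider set, had the same value to 8 decimals. At least 2 arrays shared a value in 4 of the 10 genes and in 7786 of the 16136. Such repeats make the spread, and so the SE, hard to judge. The blocked difference was -0.56 ± 0.13 (SE), or 1.47-fold (limma adjusted p = 0.333), and the interquartile range as the covariate gave -0.30 ± 0.10 (SE; limma adjusted p = 0.942). Leaving out each array in turn, the blocked difference stayed between -0.67 and -0.47, with adjusted p from 0.227 to 0.687. Without the block it was -0.02 when RRas2-deficient replicate 2, the lowest array for this gene, was left out, and -0.16 when WT replicate 3, the highest, was.

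Xrcc6 (gene ID 14375) also had its deficient arrays below the WT arrays of their own set, by less than in Xrcc5. It read 5.34, 5.19, 6.29 and 5.81 in the WT replicates and 5.64, 5.18 and 5.80 in the deficient ones. RRas2-deficient replicate 2 lay 0.01 below the nearest WT array of its set and RRas2-deficient replicate 3 lay 0.01 below its own. The difference was -0.12 ± 0.29 (SE), or -0.24 ± 0.14 (SE) with the block (limma adjusted p = 0.615). With no block it was 0.09 when WT replicate 3 was left out and 0.06 when RRas2-deficient replicate 2 was. Of all genes tested, 7.64% had every deficient array below every WT array within both sets, as both Ku genes did, and 6.70% had the reverse order, as none of the 10 did.

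The 2 Ku genes start in unlike sequence, shown here because they had the largest blocked differences. The stretches are from RefSeq on GRCm38.p6, which is not taken to be the build behind the array, read 5′ to 3′ up to the base before the start of the gene. Xrcc5 is on the plus strand at chr1:72307171-72307420, and Xrcc6 on the plus strand at chr15:82016221-82016368, the stretch between its start and that of the neighbour Desi1 on the other strand. Capitals mark CCAAT or its reverse complement ATTGG and the GC box GGGCGG or CCGCCC.
Xrcc5: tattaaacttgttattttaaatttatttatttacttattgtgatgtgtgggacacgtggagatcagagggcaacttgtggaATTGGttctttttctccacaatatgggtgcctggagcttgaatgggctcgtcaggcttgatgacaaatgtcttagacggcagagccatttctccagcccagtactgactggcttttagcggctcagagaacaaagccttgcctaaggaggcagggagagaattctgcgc
Xrcc6: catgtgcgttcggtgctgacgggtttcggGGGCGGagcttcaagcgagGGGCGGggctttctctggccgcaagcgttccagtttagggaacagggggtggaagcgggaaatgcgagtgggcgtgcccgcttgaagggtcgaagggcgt
The Xrcc5 stretch is 44.8% G and C with 5 CpG in 250 bases and has 1 CCAAT match and no GC box. The Xrcc6 stretch is 64.9% G and C with 15 CpG in 148 bases and 2 GC boxes. Over 250 bases before the start, all windows in the table had a median of 52.4% G and C and of 6 CpG, 33.9% held a CCAAT match and 32.7% a GC box.

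Prkdc (gene ID 19090), whose product is the large kinase that Ku recruits, differed little between genotypes. It read 6.60, 6.59, 6.93 and 7.00 on the WT arrays and 6.89, 6.46 and 6.97 on the deficient ones. All 4 wider arrays lay above all 3 narrower ones, and within the wider set the genotypes overlapped. The difference was -0.01 ± 0.17 (SE), with a limma 95% interval of -0.42 to 0.40, and -0.08 ± 0.07 (SE) with the block, where the interval was -0.25 to 0.10.

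The ligation genes fell into a pair that followed the array sets and Nhej1, which did not follow them. Lig4 (gene ID 319583) read 6.28, 6.16, 6.95 and 6.50 on the WT arrays and 6.59, 6.09 and 6.45 on the deficient ones. WT replicate 3 was the highest and RRas2-deficient replicate 2 the lowest. Its difference was -0.10 ± 0.22 (SE), or -0.18 ± 0.12 (SE) with the block (limma adjusted p = 0.668). Xrcc4 (gene ID 108138) was dim, near the limit of 3.48 under which genes were not tested, and a difference in so dim a gene may be understated. It read 3.82, 3.97, 4.15 and 4.38 on the WT arrays and 4.32, 3.92 and 4.12 on the deficient ones, with the genotypes interleaved in both sets. Its difference was 0.04 ± 0.16 (SE), or -0.02 ± 0.10 (SE) with the block.

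Nhej1 (gene ID 75570) had the value 4.99 on WT replicates 1, 2 and 4 and on RRas2-deficient replicates 1 and 2, a higher 5.18 on WT replicate 3 and a lower 4.78 on RRas2-deficient replicate 3. Its difference of -0.12 ± 0.10 (SE; 95% interval -0.35 to 0.11) thus rested on those 2 arrays, both in the wider set, and within the narrower set it was 0.00. In 4 of the arrays the value was the same to 8 decimals. Such repeats make the spread between arrays hard to judge.

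Of the signalling genes, Atm followed the sets and Rnf8 did not. Atm (gene ID 11920) read 6.69, 6.58, 7.44 and 7.20 on the WT arrays and 7.33, 6.51 and 7.53 on the deficient ones. The highest array and the lowest array were both from deficient cells. The difference was 0.15 ± 0.31 (SE), at -0.13 in the narrower and 0.11 in the wider set, and 0.02 ± 0.11 (SE; 95% interval -0.24 to 0.27) with the block. Rnf8 (gene ID 58230) read 5.99 on 5 of the 7 arrays, the same value to 8 decimals, 6.15 on WT replicate 3 and 5.71 on RRas2-deficient replicate 3. Its difference was -0.13 ± 0.10 (SE), with the lowest unadjusted limma p of the 10 genes (0.238) and an exact two-sided permutation p of 0.286, where the smallest p the 35 splits allow is 0.0286. Nhej1 and Rnf8 shared their highest and their lowest array.

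The genes of end protection differed in how much they varied at all. Trp53bp1 (gene ID 27223) stayed within 0.16 over the 7 arrays, the narrowest range of the 10, at 6.74, 6.77, 6.77 and 6.77 on the WT arrays and 6.77, 6.67 and 6.82 on the deficient ones. Its difference was -0.01 ± 0.08 (SE), and 4 arrays had the same value to 8 decimals. These values are from the probe given to Trp53bp1 alone. A further probe, which the annotation gives to Trp53bp1 together with Tubgcp4, was not used and was not flat. It read 7.00, 7.43, 8.22 and 7.88 on the WT arrays and 7.81, 6.83 and 7.75 on the deficient ones. On it every wider array lay above every narrower one, and its values cannot be assigned to either gene alone. Rif1 (gene ID 51869) varied over 1.35, reading 7.24, 7.21, 7.99 and 7.70 on the WT arrays and 7.75, 6.69 and 8.04 on the deficient ones. RRas2-deficient replicate 2 was the lowest of all and RRas2-deficient replicate 3 the highest. The genotype difference was -0.53 in the narrower set, from 1 deficient array, and 0.05 in the wider set, and whether these differ was not tested. It was -0.04 ± 0.36 (SE) overall and -0.18 ± 0.15 (SE) with the block (limma adjusted p = 0.731). At least 4 equal values occurred in 3 of the 10 genes, Nhej1, Rnf8 and Trp53bp1, and in 10.4% of all genes.

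The array set parted the end joining genes more than genotype did. In 7 of the 10 (Xrcc5, Xrcc6, Prkdc, Lig4, Xrcc4, Atm and Rif1) every wider array lay above every narrower one, against 26.9% of all genes, and in 0 of 10 was the order reversed, against 13.6%. The sets were split by the spread over all probes, and the array medians were 4.34 to 4.54. A gene brighter than these medians can thus read higher on wider arrays through the split itself. The shares over all genes pool dim and bright genes, and shares among genes of like brightness were not computed. The wider arrays exceeded the narrower ones in the mean by 0.93 in Xrcc5, 0.82 in Rif1, 0.78 in Atm, 0.65 in Xrcc6, 0.45 in Lig4, 0.40 in Prkdc and 0.34 in Xrcc4. The differences were 0.06 in Trp53bp1, 0.00 in Nhej1 and -0.03 in Rnf8. The median over the 10 was 0.42, beside -0.02 for all genes tested. The germinal centre and proliferation markers were higher on the same wider arrays, and the naive and marginal zone markers lower. Their part in these values was not tested. In sorted bulk RNA, fewer cells of a type and less RNA per cell cannot be told apart.

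Xrcc4, Lig4, Xrcc6 and Atm have a neighbour that starts head to head with them, on the other strand within 1000 bases upstream, and these neighbours were looked up after the values were known. Of the 8 end joining genes whose start RefSeq gives here, 4 have such a neighbour, as do 12.2% of all genes with a start there, and Prkdc and Rif1 were not looked up. The stretches between the starts are shown because both genes of each pair were brighter on the wider arrays. Lig4 and Abhd13 start 37 bases apart (chr8:9977681-9977716), Xrcc4 and Tmem167 59 bases apart (chr13:90089609-90089666), and Atm and Npat 376 bases apart, of which the 250 next to Atm are given (chr9:53536672-53536921), all in GRCm38.p6 on the minus strand of the end joining gene. Capitals mark the same letters as above and also CCGGAAG or its reverse complement CTTCCGG, the core of ETS factor motifs, which 6.91% of all windows hold.
Lig4: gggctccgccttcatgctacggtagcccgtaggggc
Xrcc4: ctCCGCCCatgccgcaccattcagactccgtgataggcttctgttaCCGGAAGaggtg
Atm: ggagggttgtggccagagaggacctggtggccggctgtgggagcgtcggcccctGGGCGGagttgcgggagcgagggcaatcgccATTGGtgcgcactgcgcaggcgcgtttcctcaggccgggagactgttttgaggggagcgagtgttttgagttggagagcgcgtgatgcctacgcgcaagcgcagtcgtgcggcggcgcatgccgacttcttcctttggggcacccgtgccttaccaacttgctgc
The Xrcc4 stretch holds 1 GC box and 1 ETS core, the Atm stretch 1 GC box and 1 CCAAT match, and the Lig4 stretch none of these letters. RefSeq also gives Lig4 a second start, with no head-to-head neighbour, and the 250 bases before that start (chr8:9976312-9976561) hold 2 GC boxes and 1 ETS core.

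Each of the 4 neighbours was also higher on every wider array than on every narrower one, as were 26.9% of all genes tested. Npat, a regulator of histone genes, read 5.98 to 6.39 in the narrower set and 7.32 to 7.82 in the wider set, a mean difference of 1.32 beside 0.78 in Atm. Desi1 read 6.21 to 6.67 and 6.98 to 7.25 (0.67, beside 0.65 in Xrcc6), Abhd13 5.47 to 5.84 and 5.89 to 6.28 (0.48, beside 0.45 in Lig4) and the dim Tmem167 3.95 to 3.99 and 4.11 to 4.41 (0.29, beside 0.34 in Xrcc4). Between genotypes the neighbours differed by -0.05 (Npat), -0.02 (Desi1), -0.10 (Abhd13) and -0.02 (Tmem167), each with a limma adjusted p of 1. Both genes of each pair thus followed the array sets, as did 60.3% of the 78 other repair genes given below. Whether the head-to-head starts bear on this was not tested. Neither gene of any pair passed the genotype test.

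**Figure D3:**
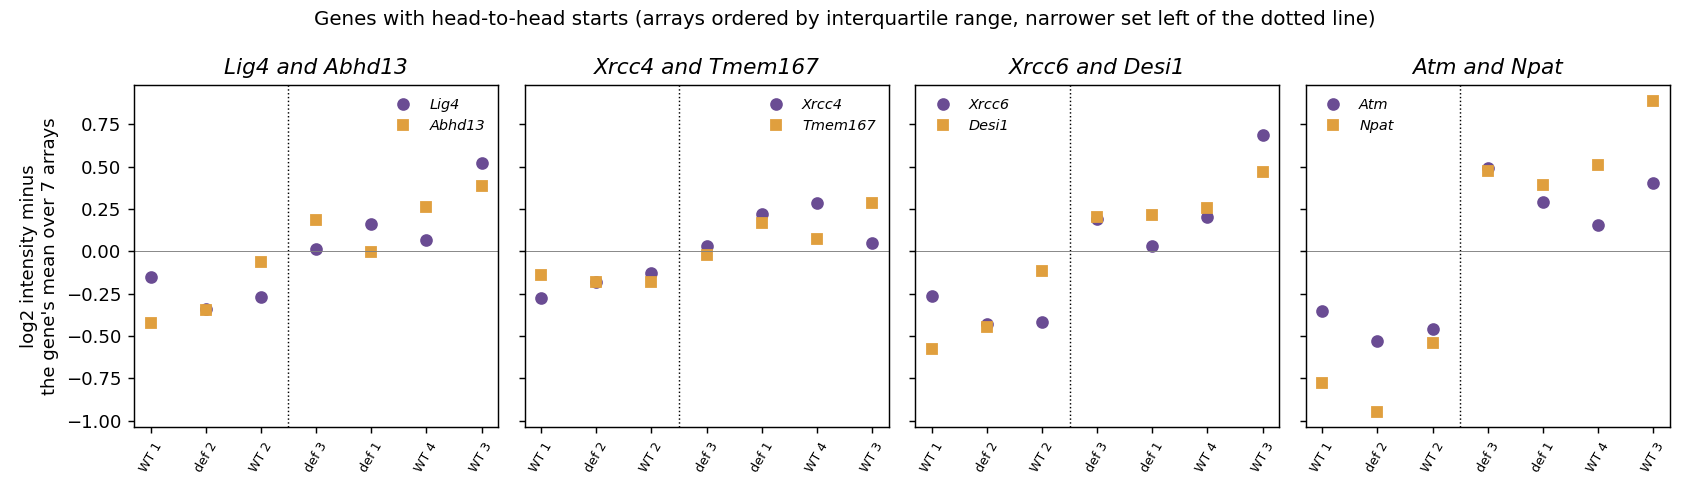
Log2 intensity minus the gene's own mean over the 7 arrays (vertical axis) for the 4 end joining genes (purple circles) and their head-to-head neighbours (orange squares), with arrays ordered by interquartile range and a dotted line between the narrower and the wider set. All 8 genes lie higher to the right of the line, with mean differences from 0.29 in Tmem167 to 1.32 in Npat.

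The gene whose centred values came nearest to those of each end joining gene over the 7 arrays was sought first among 87 repair genes, namely the other 9 and 78 on the lists that follow, and then among all genes tested. The root mean square of the differences in log2 intensity was 0.13 between Rif1 and Atm, 0.10 between Atm and Brca1, 0.15 between Xrcc5 and Nbn, a subunit of the break sensor MRN, and 0.09 between Xrcc6 and Rad51c. It was 0.09 between Prkdc and Parp1, 0.09 between Lig4 and Tti2, and 0.03 between Nhej1 and Rnf8, whose values were equal on most arrays. Among all genes tested the nearest was a repair gene for 0 of the 10, and the nearest to Xrcc5 was Ppm1d (0.07), to Xrcc6 Gtf2e2 (0.05), to Rif1 Mrps31 (0.03) and to Atm Herc6 (0.07). These are descriptions of 7 arrays that differ by set, and so many candidates bring some gene close to any pattern.

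The wider repair machinery also held no gene that passed the genotype test. Over 6 lists, 0 of 78 tested genes passed an adjusted p of 0.05 in limma, 0 had an unadjusted p under 0.05, and 47 were lower and 31 higher in the deficient cells, with a median log2 difference of -0.04 beside 0.00 for all genes tested. With the array set as a block 63 were lower and 15 higher, the median was -0.11 and 7 had an unadjusted p under 0.05, against 10.1% of all genes, and 0 passed after adjustment. The proliferation, germinal centre and plasma cell markers leaned the same way in that model, as given above, and their part was not tested. With the interquartile range as the covariate an alternative added after the data were seen, the medians of the 6 lists ran from -0.05 to 0.07.

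Among other factors of core end joining 4 of 7 genes were lower (median -0.05), with the Ku-binding protein gene Paxx at -0.16 ± 0.12 (SE) and the gap-filling polymerase gene Poll at 0.13 ± 0.10 (SE). In break signalling and end protection 10 of 21 were lower (median 0.01), with Dynll1, whose product binds TRP53BP1, at 0.12 ± 0.11 (SE) and the histone demethylase gene Kdm4a at 0.08 ± 0.08 (SE). In alternative end joining, which uses other ligases and needs no Ku, 7 of 10 were lower (median -0.09), with Parp3 at -0.12 ± 0.10 (SE) and the ligase III scaffold gene Xrcc1 at 0.17 ± 0.15 (SE). In homologous recombination, which copies from a sister chromatid, 10 of 16 were lower (median -0.03), with the exonuclease gene Exo1 at 0.29 ± 0.35 (SE) and Rad52 at -0.05 ± 0.07 (SE). In deamination and switch-region targeting 6 of 9 were lower (median -0.12), with the elongation factor gene Supt5 at -0.16 ± 0.14 (SE) and the splicing regulator gene Ptbp2 at -0.14 ± 0.12 (SE). Among the related kinases and checkpoint genes 10 of 15 were lower (median -0.10), with Smg1, a kinase of the family of ATM, at -0.14 ± 0.08 (SE) and the cell cycle inhibitor gene Cdkn1a at -0.26 ± 0.18 (SE). Smg1, at 8.65 to 8.81 on the WT arrays and 8.53 to 8.64 on the deficient ones, was the 1 gene of the 78 whose genotypes were fully apart, against 1.08% of all genes. Smg1, Xrcc1 and Supt5 are among 8 of the 78 on chromosome 7, where Rras2 lies.

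Most of these repair genes, like 7 of the 10 end joining genes, were higher on every wider array than on every narrower one. This held for 47 of the 78 (60.3%), against 26.9% of all genes, which were not matched to the 78 for brightness. By list it was 13 of 16 in homologous recombination, 7 of 10 in alternative end joining, 14 of 21 in break signalling and end protection, 5 of 9 in deamination and switch-region targeting, 7 of 15 among the kinases and checkpoint genes and 1 of 7 among the other core factors.

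**Figure D4:**
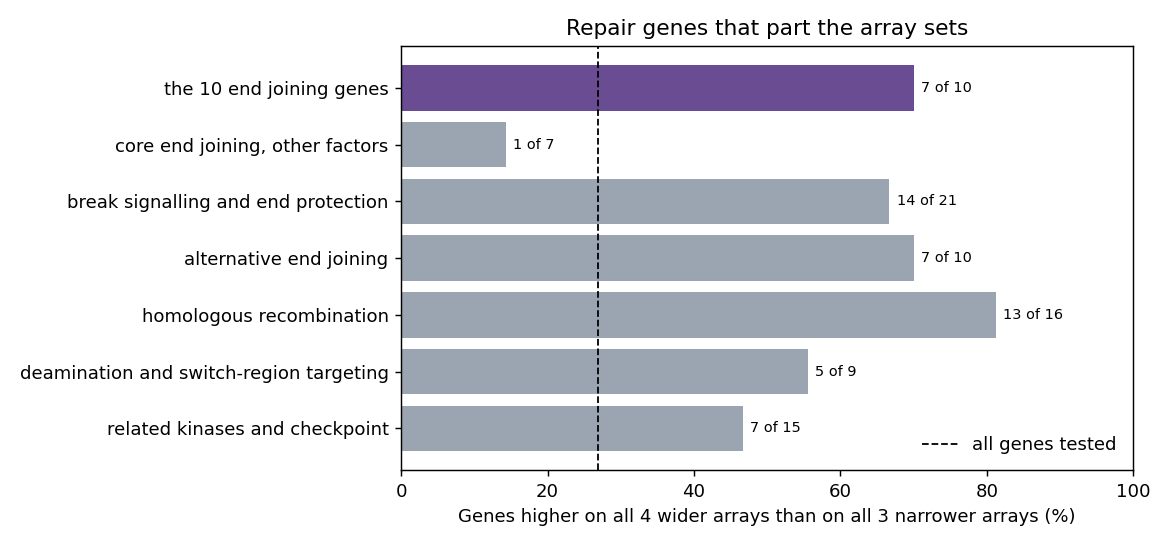
Share of tested genes whose intensity was higher on all 4 wider than on all 3 narrower arrays (horizontal axis, percent), for the 10 end joining genes (purple) and 6 lists of other repair genes (grey), with counts beside the bars. The dashed line is the share over all 16136 genes tested, 26.9%, which are not matched to the lists for brightness. Below it lies 1 list, the other core factors at 1 of 7.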

How the data were processed

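Per the labels, total RNA of sorted spleen cells was labelled with biotin and read on 1 whole-transcript array per sample. The deposited intensities are on the log2 scale. The submitters' processing notes name RMA, a method that corrects background, quantile-normalizes and summarises probe sets, and oligo, and their versions and the genome build are not given in the sources used here. Precision is limited by how many arrays there are. The labels call the samples biological replicates but do not name the animals. A p-value thus covers only the spread between these samples, part of which may be technical.

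The platform annotation gave 1 gene symbol to 22225 probes, several to 616 and none to 2508, and only the first kind was used. Where a gene had several probes the brightest was taken. Genes below the 25th percentile of mean intensity (3.48) were not tested. RRas2-deficient was compared with WT by the two-sided moderated test of limma 3.58.1 under R 4.3.3, p-values were adjusted over 16136 genes after Benjamini and Hochberg, and the threshold was 0.05. The error after a difference is the moderated SE of limma. An exact permutation test over 35 splits was added for each of the 10 genes. The fit was tested on simulated data with independent noise in each gene. Real arrays share variation across genes, so that check does not show how the p-values behave here.

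The 10 genes, the 6 repair lists and the array sets, split where neighbouring interquartile ranges lay farthest apart, were chosen with earlier results of these data known. Each list is represented by its 2 genes of lowest unadjusted p. Likeness names the gene with the smallest root mean square difference. The alternatives changed the filter, the probe summary, the scaling (quantile or median), the prior (trend and robust), the weights of arrays (statmod 1.5.0), the block (replicate number or array set), the covariate (interquartile range) and the arrays (each set alone, and each array left out, with and without the set block). Promoter windows are from RefSeq on GRCm38.p6 and cover 8 of the 10 genes.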

Additional observations from a re-analysis of the deposited data

Results flagged for a closer look

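Among the 10 end joining genes, 3 had a WT array far from the other 3, measured as its gap to the next array over the range of the WT arrays. WT replicate 3 read 5.18 in Nhej1 against 4.99 on the others (gap over range 0.981) and 6.15 in Rnf8 against 5.99 (1), and WT replicate 1 read 6.74 in Trp53bp1 against 6.77 (1). The other WT arrays are equal or nearly equal in each of these genes, so a small gap fills the range. Chance marks about 1 group in 20, and groups of 3 were not examined.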

How the results depend on the processing

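The count of end joining genes past the threshold was 0 under each alternative run, while the count over all genes moved from 2 to 5 with array weights, 1 with arrays centred on medians, and 0 with the replicate block and within each array set alone; it was 0 to 2 when 1 array was left out, with or without the set block. Samples with the same replicate number share only that number: their deviations from the genotype means correlated at -0.589, 0.784 and 0.664 for numbers 1 to 3, and number 1 joins arrays of different sets. With the replicate block 0 genes passed. The differences of Xrcc5 and Rnf8 kept their sign in every fit run, apart from a difference of 0.00 for Rnf8 within the narrower arrays, where its values are equal. Of the others, Xrcc4 turned to -0.016 with the set block, -0.10 with array weights and -0.042 within the wider arrays. Prkdc turned to 0.0055 with a further quantile normalization, 0.023 with the interquartile range as the covariate and 0.064 with the replicate block. Trp53bp1 turned to 0.017 with array weights, 0.0070 with a further quantile normalization and 0.029 within the wider arrays. Rif1 turned to 0.11 with array weights, 0.027 with the covariate, 0.016 with the replicate block and 0.053 within the wider arrays. Nhej1 was 0.0019 and Atm -0.13 within the narrower arrays, as was Cdkn1a at 0.15, and Exo1 was -0.0038 within the wider arrays and Ptbp2 0.0092 with array weights. With 1 array left out the ranges were -0.33 to 0.089 (Xrcc6), -0.069 to 0.14 (Xrcc4), -0.28 to 0.063 (Lig4), -0.11 to 0.15 (Prkdc), -0.044 to 0.035 (Trp53bp1), -0.31 to 0.36 (Rif1), -0.069 to 0.45 (Atm) and -0.0038 to 0.52 (Exo1). The cause of these turns was not tested. Of 24 list medians recomputed, 4 changed sign: break signalling and end protection went from 0.01 to -0.07 with the set block and to -0.01 with arrays centred on medians, and with the covariate, added after the data were seen, homologous recombination went from -0.03 to 0.01 and the kinases and checkpoint genes from -0.10 to 0.00. With 4 and 3 arrays, differences of the size of these intervals could not be detected.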
